A study of Rattus norvegicus with 30 samples.

Results

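Female rats that showed a minimal behavioural response after exposure to predator scent were compared with female rats that had not been exposed, over the genes measured in their hippocampus. The rats were chosen by their labels alone. The minimal responders are the 5 rats with that response label whose identifier begins with F, and the controls are the 5 F-series rats labelled as control. Together they make up 10 of the 30 arrays of the series. All were adult female Sprague Dawley rats with no transgene or drug named, and 1 array was hybridised per rat. The minimal responders had met the scent and were then sorted by their behaviour. The controls took the behavioural tests but met no scent. The labels give neither the length of the exposure nor the interval between exposure and dissection. Values of 5 female extreme responders, 4 male minimal responders and 5 male controls from the same series are set beside the female comparison, and 5 male extreme responders entered only the estimate of the spread between rats. The fifth male minimal responder has no values. The series asks which hippocampal transcripts go with exposure and which go with the individual response to it.

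Predator scent is used in rodents as a stressor that causes no injury, and exposed animals differ widely in how much anxiety-like behaviour and startle they later show. The hippocampus is rich in receptors for corticosterone, the main rat glucocorticoid. Stress hormone raises transcripts such as *Sgk1*, *Fkbp5* and *Ddit4* through these receptors, and neuronal firing raises immediate early genes such as *Arc* and *Fos* within a short time. Granule cells of the dentate gyrus, pyramidal cells of the CA fields, scattered inhibitory interneurons and several kinds of glia make up the tissue.

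The values are log2 intensities, so a difference of 1 is a doubling. All arrays share one distribution of values, as quantile normalisation gives, which leaves 10332 probes above background (7.03) on each array, and an array has no read depth. After the filter 11888 of 22523 probes were tested. Of the hippocampal markers, *C1ql2*, *Calb1*, *Wfs1*, *Neurod6*, *Gad1*, *Pvalb*, *Gfap*, *Mbp* and *Aif1* lay above background on all 10 arrays, *Prox1* and *Fibcd1* on 9 and *Grik4* on 2. Choroid plexus transcripts were highest on 2 of the 10 arrays, minimal responder 3 and control 2, with list means of 10.77 and 10.43. Minimal responder 5 (8.81), control 5 (8.44) and minimal responder 2 (8.23) also stood above the 7.78 to 8.02 of the rest. Fits without the 2 highest rats still hold these. *Prkcd*, a thalamic marker, stood at 10.21 in control 5 and 9.49 in control 2, against 7.26 to 8.15 in the minimal responders and 7.32 to 7.42 in the other controls. A division of the arrays into a set A and a set B, seen in 8 probes and not in the labels, put 3 of 5 rats of each female group in set A. A set effect therefore cancels in the difference between the groups and alters only its error. All 5 female extreme responders lay in set B. Male extreme responder 4 had a median correlation of 0.974 with the other arrays, against 0.983 to 0.990 for the rest, and enters the comparison only through the spread.

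No single probe passed the test between female minimal responders and female controls after adjustment. Of the 11888 probes, 0 passed (0%) in limma with Benjamini-Hochberg adjustment, and the smallest adjusted p was 0.0891. At an unadjusted p under 0.05 there were 1314 probes (11.1%), of which 672 were higher (5.65%) and 642 lower (5.4%) in minimal responders, where 594 would be expected with no difference. With the array set as a block, 6 probes passed (0.0505%). The 4 higher in minimal responders (0.0336%) were *Ppt2*, *Ssbp4* and the unnamed probes ILMN_1368897 and ILMN_1373412. The 2 lower (0.0168%) were *Lpcat3* and the unnamed probe ILMN_1368889. Leaving out male extreme responder 4 gave 11 calls, 7 higher and 4 lower, of which 5 were shared with the 6 under the block. The 5 values of one group lay wholly above or wholly below the 5 of the other for 249 probes (2.09%), 124 with minimal responders above (1.04%) and 125 below (1.05%). Counted over genes, 80 of 8388 lay above (0.954%) and 99 below (1.18%). The median size of the difference was 0.0858 over all probes.

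**Figure D1:**
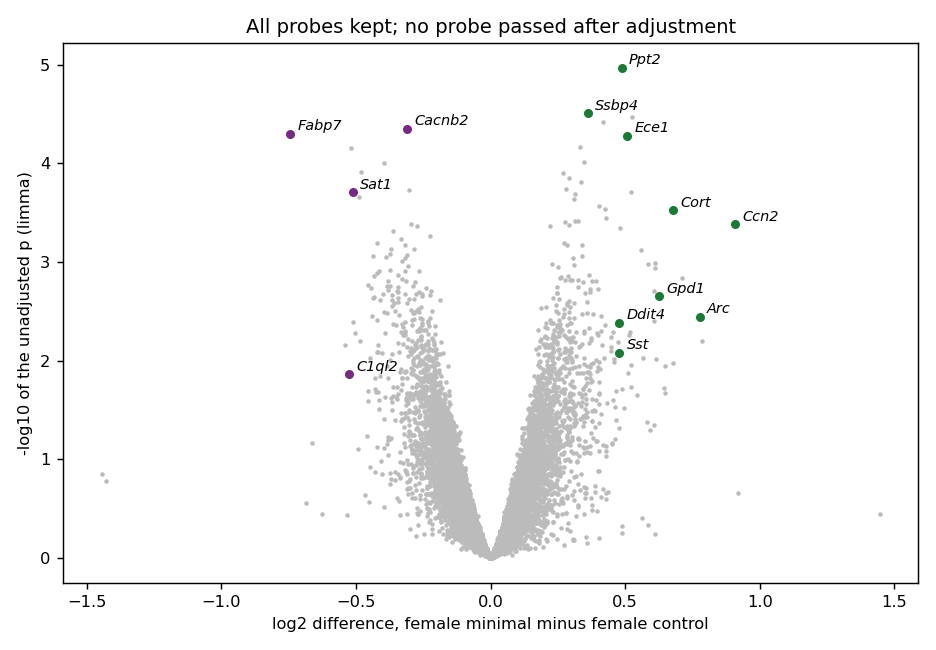
Each grey point is 1 of the 11888 probes tested. The horizontal axis gives the log2 difference of female minimal responders minus female controls, and the vertical axis the negative log10 of the unadjusted limma p. Labelled genes are green where higher and purple where lower in minimal responders. *Ppt2* has the smallest p, and *Fabp7* lies farthest left among the genes labelled.

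*Fabp7* was lower in minimal responders, with groups that did not overlap. It encodes the brain fatty acid binding protein, which carries long-chain fatty acids in radial glia, neural progenitors and astrocytes. The 5 minimal responders read 12.08, 12.09, 12.13, 12.32 and 11.93, against 13.08, 12.88, 12.71, 12.85 and 12.75 in the controls. Every minimal responder lay below every control, by at least the gap between 12.32 and 12.71. The means were 12.11 ± 0.14 in minimal responders and 12.85 ± 0.14 in controls (SD, n = 5 each). The log2 difference of -0.74 (SE 0.16) corresponds to 0.597 times the control level, with an adjusted p of 0.0891 in limma. Male extreme responder 4 read 11.15, against 12.16 to 12.56 in the other 4 males of its group, and without that array the adjusted p was 2.14e-05. In a fit of the 10 female arrays alone it was 0.0227 and *Fabp7* was the 1 probe to pass. Female extreme responders averaged 12.65 ± 0.10, which was 0.54 above the minimal responders (adjusted p = 0.046, or 0.0943 with the set as a block). In males the difference between minimal responders and controls was -0.14, and the female and male differences did not pass the test of their difference (adjusted p = 0.413). The comparison of extreme with minimal females shares the minimal responders, whose values chose *Fabp7* and the other genes named by smallest p. Of those 24 genes 15 passed it, beside 450 of all probes (3.79%), so its p lends them no separate support.

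*Ppt2* had the smallest p of all probes and was higher in minimal responders. It encodes a palmitoyl-protein thioesterase of the lysosome. Minimal responders read 9.18, 9.14, 9.36, 9.05 and 9.38, and controls 8.69, 8.60, 8.81, 8.74 and 8.85. Every minimal responder lay above every control. The difference was 0.49 (SE 0.09), or 1.40-fold, with an adjusted p of 0.0891 without the block and 0.00163 with it. Female extreme responders averaged 8.54 ± 0.12, which was 0.69 below the minimal responders (adjusted p = 8.04e-05) and 0.20 below the controls (adjusted p = 0.332). The male difference was 0.00, and the test between the sexes gave an adjusted p of 0.241, or 0.0499 with the block.

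*Ssbp4*, which encodes a single-stranded DNA binding protein, had a like pattern. Minimal responders lay between 8.33 and 8.44, and controls between 7.89 and 8.22. The difference was 0.36 (SE 0.07), with an adjusted p of 0.0891, or 0.0362 with the block. Extreme responders were 0.55 lower than minimal responders (adjusted p = 8.04e-05). *Lpcat3*, an acyltransferase that puts polyunsaturated fatty acids into phospholipids, read 8.42 to 8.76 in minimal responders and 8.73 to 9.28 in controls, so the groups overlapped slightly. Its difference was -0.36 (SE 0.11), with an adjusted p of 0.239, or 0.0259 with the block. Its second probe was lower as well, by -0.20. The unnamed probes differed by 0.53 (ILMN_1373412), 0.42 (ILMN_1368897) and -0.40 (ILMN_1368889).

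**Figure D2:**
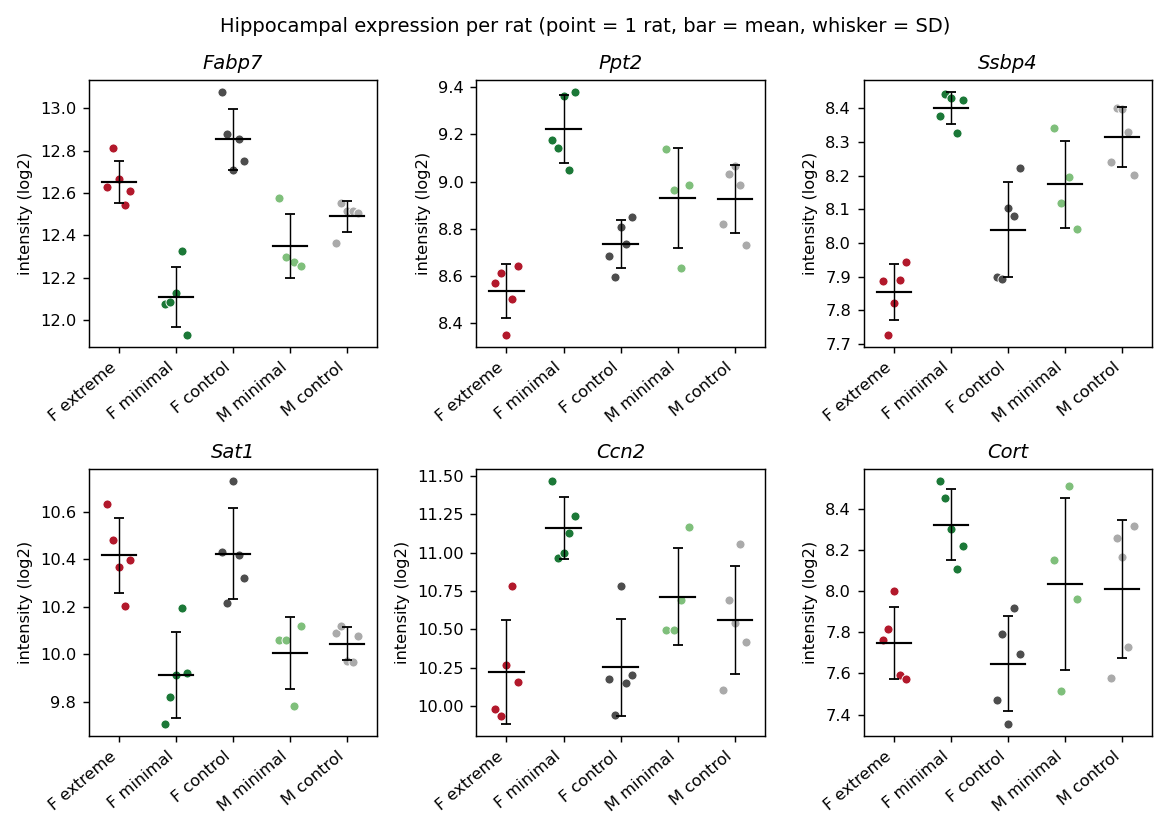
Log2 intensity of 6 genes in each rat, by group. Points are rats, bars are means and whiskers are SD. *Fabp7* and *Sat1* are lower, and *Ppt2*, *Ssbp4*, *Ccn2* and *Cort* higher, in all 5 female minimal responders than in any of the 5 female controls.

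The 12 higher and 12 lower named probes with the smallest unadjusted p spanned sizes of 0.227 to 0.744, and 20 of the 24 had groups that did not overlap. Since p chose them, that count supports nothing. Among those higher, *Ece1*, the enzyme that makes active endothelin, read 7.84 to 8.42 in minimal responders and 7.44 to 7.93 in controls (difference 0.51, SE 0.11). *Rab24*, a small GTPase linked to autophagy, read 11.48 to 11.79 in minimal responders and 11.16 to 11.47 in controls, and extreme responders were 0.63 below minimal responders (adjusted p = 7.27e-05). *Lin7b*, a scaffold protein of synaptic junctions, differed by 0.52, *Tpr* of the nuclear pore by 0.35, *Dnajb1*, a partner of the Hsp70 chaperones, by 0.31, and *Fundc2*, a mitochondrial protein, by 0.31. *Hoxc9* (0.28) and *Ndrg3* (0.40) complete the higher genes with *Srm* and *Cort*. In controls *Hoxc9* read 7.09 to 7.27, close to the background cut of 7.03. Of the 24, *Ppt2* and *Ssbp4* passed with the set as a block and none passed without it.

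Among the lower genes, *Cacnb2*, an auxiliary subunit of voltage-gated calcium channels, was tight within both groups, at 7.73 to 7.86 in minimal responders and 8.04 to 8.17 in controls. Its difference was -0.31 (SE 0.06, adjusted p = 0.0891). *Epha4*, a receptor for ephrins on axons and dendritic spines, read 11.79 to 12.30 in minimal responders and 12.34 to 12.69 in controls, a difference of -0.42. *Pik3cb*, a catalytic subunit of phosphoinositide 3-kinase, differed by -0.33, *Csgalnact1* of chondroitin sulfate synthesis by -0.36 and *Vdac3*, a channel of the outer mitochondrial membrane, by -0.27. *Cttnbp2*, which binds cortactin, differed by -0.32 but lay above background in 1 minimal responder and 4 controls, so its level there is near the floor. *Tspyl4* (-0.49), *Ypel5* (-0.30), *Lrp11* (-0.28) and *Champ1* (-0.23) were the other lower genes.

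*Srm* was higher and *Sat1* lower in minimal responders, and both act on polyamines. *Srm*, spermidine synthase, read 9.66, 9.77, 9.42, 9.52 and 9.71 in minimal responders, against 9.07, 9.23, 8.99, 9.29 and 9.36 in controls (difference 0.43, SE 0.10, adjusted p = 0.142). *Sat1*, which acetylates spermidine and spermine for breakdown, read 9.71, 9.82, 9.91, 10.20 and 9.92 in minimal responders, against 10.43, 10.22, 10.73, 10.42 and 10.32 in controls (difference -0.51, SE 0.12, adjusted p = 0.122). Neither gene overlapped between the groups. The pair was set side by side after its values were seen. For *Sat1*, extreme responders averaged 10.42 ± 0.16, -0.01 from the controls and 0.50 above the minimal responders (adjusted p = 0.016).

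Genes that respond to glucocorticoid lay mostly on the higher side in minimal responders, by small amounts. Of the 21 list members tested, 16 were higher and 5 lower, with a median difference of 0.07, whereas 47.7% of all 8388 genes were higher and their median was -0.01. Within set A 12 of 21 were higher, with a median of 0.03, and within set B 17 of 21, with a median of 0.13. Without minimal responder 1 the median was 0.13. The mean level of the list overlapped, at 0.05 to 0.20 in minimal responders and -0.15 to 0.15 in controls, of which control 3 was the highest. None passed the adjusted test in either direction (0% of all probes did), and 3 had an unadjusted p under 0.05, all higher (5.62% of all genes). *Ddit4*, an inhibitor of mTOR signalling that glucocorticoid induces, read 10.23, 10.58, 10.45, 10.27 and 10.26 in minimal responders, against 9.78, 10.22, 9.87, 9.92 and 9.61 in controls. No value of one group reached the other, and the difference was 0.48 (SE 0.15, adjusted p = 0.271). Extreme responders averaged 10.96, which was 1.08 above controls (adjusted p = 0.000434, in a comparison with 119 probes or 1% past the test) and 0.60 above minimal responders (adjusted p = 0.0251, or 0.117 with the block). *Gpd1*, the cytosolic glycerol phosphate dehydrogenase, read 9.51 to 10.06 in minimal responders and 8.79 to 9.43 in controls, a difference of 0.63 (SE 0.19, adjusted p = 0.235). *Nfkbia*, the inhibitor of NF-kappaB, differed by 0.40 and *Mt1*, a metallothionein, by 0.42, and both overlapped.

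*Sgk1*, the serum and glucocorticoid regulated kinase, did not follow *Ddit4* in size. It read 11.51, 12.22, 12.07, 11.97 and 11.76 in minimal responders, against 11.47, 11.68, 12.30, 11.64 and 11.47 in controls. The groups overlapped, with control 3 above all minimal responders, and the difference was 0.20 (SE 0.19, adjusted p = 0.741). It was -0.02 within set A. Extreme responders averaged 12.78, which was 0.88 above minimal responders (adjusted p = 0.00822). *Fkbp5*, the co-chaperone that dampens the glucocorticoid receptor, averaged 10.46 ± 0.14 in minimal responders and 10.39 ± 0.12 in controls, a difference of 0.07 (SE 0.13). *Nr3c2*, the mineralocorticoid receptor, differed by -0.06 (SE 0.13). *Nr3c1*, the glucocorticoid receptor, lay near background, above it in 2 minimal responders and 1 control, and so did *Crh*, corticotropin releasing hormone, in 2 and 2. For neither of these can a difference be read at this signal. Of the 12 receptors, chaperones and cofactors tested, 6 were higher and 6 lower, with *Dnajb1* at 0.31 and *Hsp90aa1*, a chaperone of the steroid receptors, at -0.34.

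**Figure D3:**
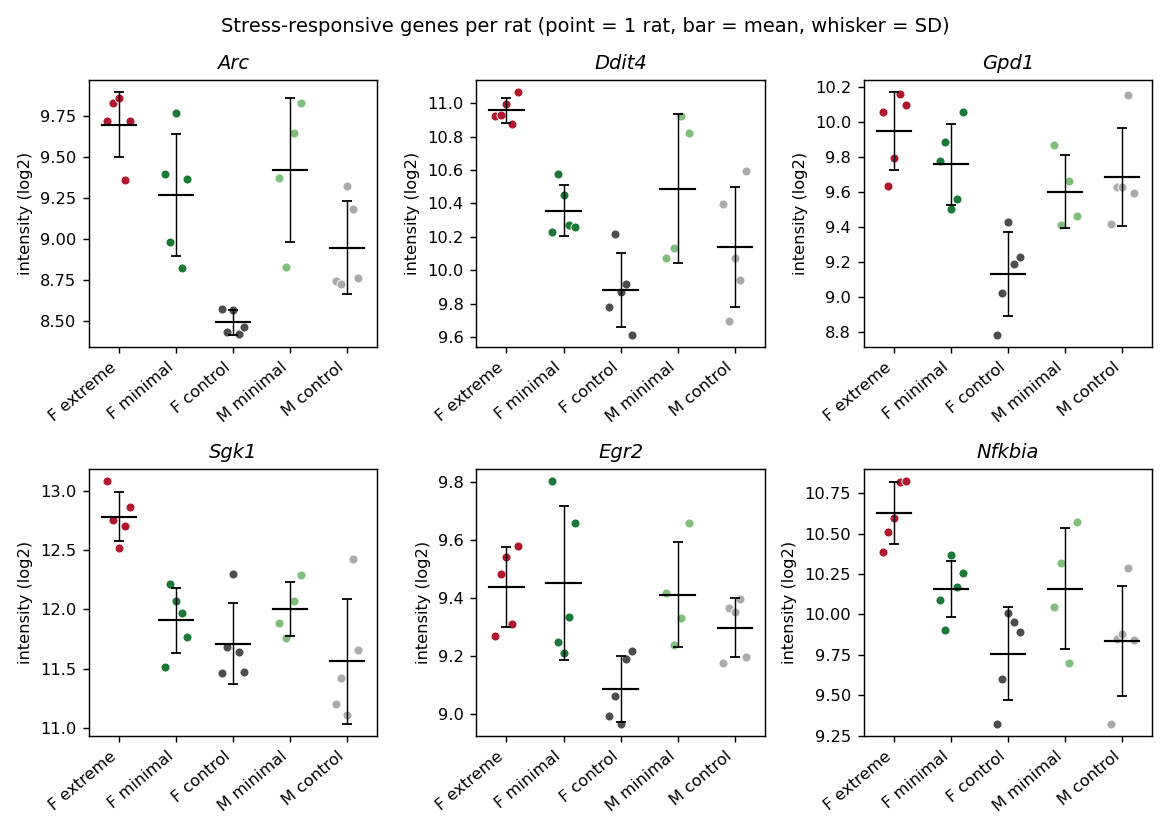
Log2 intensity of 6 stress-responsive genes in each rat, by group. Points are rats, bars are means and whiskers are SD. *Arc*, *Ddit4* and *Gpd1* are higher in all 5 female minimal responders than in any female control, while *Sgk1*, *Egr2* and *Nfkbia* overlap.

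Immediate early genes lay mostly on the higher side in minimal responders. Of 28 tested, 22 were higher and 6 lower, with a median of 0.18 against -0.01 for all genes, or 0.11 without minimal responder 1. Unadjusted p fell under 0.05 for 8 of them, all higher (5.62% of all genes), and none passed after adjustment. *Arc*, whose product acts at active synapses, read 9.40, 8.98, 9.77, 8.82 and 9.37 in minimal responders, against 8.57, 8.43, 8.57, 8.42 and 8.46 in controls. The groups did not overlap, although minimal responders spread more widely. The difference was 0.78 (SE 0.24), or 1.71-fold, with an adjusted p of 0.268. Extreme responders averaged 9.70, 1.21 above controls (adjusted p = 0.0107) and 0.43 above minimal responders (adjusted p = 0.36). *Egr2*, a transcription factor, differed by 0.36 and *Gadd45b*, a growth arrest and DNA damage gene, by 0.35. *Fos* averaged 7.59 ± 0.23 in minimal responders and 7.37 ± 0.19 in controls, a difference of 0.22 (SE 0.22). The mean level of the 28 genes, relative to the control mean, ranged from 0.07 to 0.34 in minimal responders and from -0.10 to 0.07 in controls, and so overlapped at the edge.

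*Ccn2*, a matricellular protein also called connective tissue growth factor, showed the largest difference of the 28 immediate early genes. Minimal responders read 11.47, 10.96, 11.00, 11.13 and 11.24, against 10.18, 9.94, 10.78, 10.15 and 10.20 in controls. Every minimal responder was above every control. The difference was 0.91 (SE 0.23), or 1.88-fold, with an adjusted p of 0.151. It was 0.0482 without male extreme responder 4 and 0.0409 in the 10 female arrays with the set as a block. Extreme responders averaged 10.22, -0.03 from controls and 0.94 below minimal responders (adjusted p = 0.019, or 0.0695 with the block). *Ccn2* also marks the deepest layer of the neocortex, which borders the hippocampus. It is itself 1 of the 6 neocortex markers tested. Of the others, *Fezf2* (0.39), *Nr4a2* (0.18) and *Lamp5* (0.08) were higher, and *Tle4* (-0.26) and *Etv1* (-0.07) lower. The mean level of the 6, *Ccn2* included, ranged from -0.01 to 0.48 in minimal responders and from -0.25 to 0.18 in controls. Of the defining markers, *Rorb* was above background in 0 of 10 arrays, and *Tbr1* and *Cux2* are not on the array. The part of neocortical RNA in the *Ccn2* difference was not tested.

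Clock genes were split, with 6 of 12 higher and 6 lower. *Dbp*, an output gene of the clock, read 7.42 to 7.83 in minimal responders and 7.17 to 7.46 in controls, a difference of 0.29 (SE 0.07, adjusted p = 0.187). *Cry1*, a repressor in the clock, differed by 0.34, *Nr1d1* by -0.30 and *Tef* by -0.25. The labels give no time of day.

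Interneuron markers were mostly higher in minimal responders. Of 19 tested, 16 were higher and 3 lower, with a median of 0.14, or 0.08 without control 2 and 0.09 without minimal responder 1. The mean level of the list overlapped, at -0.01 to 0.35 in minimal responders and -0.10 to 0.09 in controls. Its median was 0.10 in female extreme responders against the same controls, and 0.13 between male minimal responders and male controls. None passed after adjustment and 3 had an unadjusted p under 0.05, all higher (5.62% of all genes were, and 47.7% of all genes had a higher value). *Cort*, cortistatin, a peptide of a class of inhibitory interneurons, read 8.54, 8.45, 8.31, 8.11 and 8.22 in minimal responders, against 7.47, 7.79, 7.36, 7.92 and 7.69 in controls (difference 0.68, SE 0.16, adjusted p = 0.142). *Sst*, somatostatin, a peptide related to cortistatin, read 10.31, 9.72, 9.79, 9.66 and 9.92 in minimal responders, against 9.57, 9.20, 9.35, 9.60 and 9.27 in controls (difference 0.48, SE 0.17, adjusted p = 0.293). Both peptides were higher in all 5 minimal responders than in any control. *Sstr2*, a receptor for both, differed by 0.31 and overlapped, and *Cck*, cholecystokinin, by 0.35. *Npy*, neuropeptide Y, averaged 10.01 ± 0.42 in minimal responders and 9.65 ± 0.53 in controls (difference 0.36, SE 0.27, adjusted p = 0.651). *Gad2*, which makes GABA, reached 9.62 in minimal responder 4, against 8.07 to 8.88 in the other 4 and 7.69 to 8.44 in controls. In bulk tissue, more cells of a type and more RNA per cell cannot be told apart, and the same holds for losses. Without the rats high in choroid plexus transcripts, 16 of 19 were higher, and within set A 13 of 19. Not every interneuron marker rose. *Gad1* averaged 11.68 in minimal responders and 11.75 in controls. *Pvalb* was slightly higher in minimal responders, at 8.74 against 8.64.

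Promoters of 4 genes, chosen after their values were seen, are shown with the short motifs searched. They run 5′ to 3′ from 250 bases before to 50 after the annotated start, from RefSeq on GRCr8, and matches on either strand are in capitals. *Fabp7* (chromosome 20, 37669356 to 37669655, plus strand) is the gene with the largest drop among the 24 named above and *Ppt2* (chromosome 20, 4128110 to 4128409, plus strand) the one with the smallest p. *Cort* (chromosome 5, 164845075 to 164845374, minus strand) and *Sst* (chromosome 11, 90461296 to 90461595, plus strand) encode the related peptides whose groups did not overlap.
Fabp7: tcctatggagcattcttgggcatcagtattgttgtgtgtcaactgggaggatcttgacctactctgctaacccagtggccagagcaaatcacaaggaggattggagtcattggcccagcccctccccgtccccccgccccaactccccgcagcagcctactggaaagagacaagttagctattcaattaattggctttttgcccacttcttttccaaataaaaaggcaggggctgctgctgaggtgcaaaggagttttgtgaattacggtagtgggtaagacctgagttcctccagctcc
Ppt2: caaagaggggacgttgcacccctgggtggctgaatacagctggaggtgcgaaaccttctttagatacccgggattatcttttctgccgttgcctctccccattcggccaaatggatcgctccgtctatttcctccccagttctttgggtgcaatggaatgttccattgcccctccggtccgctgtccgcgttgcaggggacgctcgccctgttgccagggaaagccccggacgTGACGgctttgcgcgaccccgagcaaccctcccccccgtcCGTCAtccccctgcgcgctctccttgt
Cort: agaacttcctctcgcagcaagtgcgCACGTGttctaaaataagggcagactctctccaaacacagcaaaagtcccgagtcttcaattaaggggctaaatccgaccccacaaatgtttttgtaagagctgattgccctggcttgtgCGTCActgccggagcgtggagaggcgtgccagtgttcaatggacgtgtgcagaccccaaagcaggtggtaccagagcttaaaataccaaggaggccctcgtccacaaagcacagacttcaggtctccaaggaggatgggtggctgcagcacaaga
Sst: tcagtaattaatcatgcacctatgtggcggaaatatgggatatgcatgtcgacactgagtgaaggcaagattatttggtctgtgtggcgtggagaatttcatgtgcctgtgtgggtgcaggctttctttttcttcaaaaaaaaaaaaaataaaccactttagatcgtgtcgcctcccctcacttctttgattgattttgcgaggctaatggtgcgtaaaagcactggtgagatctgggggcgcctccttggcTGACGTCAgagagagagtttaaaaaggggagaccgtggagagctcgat

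The motifs searched on both strands were the cyclic AMP response element (TGACGTCA), its shorter core (TGACG, which lies inside the full element on both strands), the core of the glucocorticoid response element (ACANNNTGT), the E-box bound by clock factors (CACGTG) and the core of the serum response element. The *Sst* window holds the full cyclic AMP response element, as 1.83% of 33469 promoters of that length do. *Ppt2* holds the shorter core at 2 positions and *Cort* at 1, beside 21.2% of all promoters, and *Cort* also holds the E-box, beside 6.42%. The glucocorticoid core, found in 6.86% of promoters, and the serum response core, in 0.0329%, match in none of these 4 windows, and *Fabp7* has no match at all. A match describes letters in the window only.

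Markers of dentate granule cells lay mostly on the lower side in minimal responders. Of 9 tested, 8 were lower and 1 higher, with a median of -0.12, and their mean level ranged from -0.33 to -0.11 in minimal responders and from -0.06 to 0.08 in controls, with no overlap. Among the 33 lists looked at, the mean level of every other list overlapped. None passed after adjustment. Of the 9, 3 had an unadjusted p under 0.05, all lower (5.62% of all genes were). *C1ql2*, a secreted protein of mossy fibre synapses, read 8.80, 9.14, 9.11, 9.38 and 9.14 in minimal responders, against 9.54, 9.50, 9.60, 9.77 and 9.79 in controls (difference -0.53, SE 0.20, adjusted p = 0.33). *Pdyn*, which encodes the precursor of dynorphin peptides, read 7.43 to 8.50 in minimal responders and 8.26 to 8.66 in controls (difference -0.43, SE 0.17). *Calb1*, a calcium binding protein, differed by -0.28 and *Stxbp6* by -0.23, with *Stxbp6* above background in 0 minimal responders and 3 controls. *Prox1*, a defining granule cell marker, hardly differed. It averaged 7.19 in minimal responders and 7.23 in controls, close to background. Against the controls, the dentate list had a median of -0.20 in female extreme responders, a comparison that shares the control rats, and its mean level was -0.14 in extreme and -0.19 in minimal responders, so the order of those groups depends on the statistic. In males, whose rats are other animals, the median was -0.11.

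Progenitor and immature neuron markers showed no common direction, with 11 of 19 higher, 8 lower and a median of 0.03. The transcription factors *Bhlhe22* and *Neurod1* differed by -0.43 and -0.41, while *Tubb2b*, a tubulin, differed by 0.41. Of 18 neurotrophins and growth factors 11 were higher and 7 lower, with a median of 0.05. *Ntf3*, neurotrophin 3, differed by -0.42 and *Bdnf* by -0.18 (SE 0.11, adjusted p = 0.545).

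Subunits of the respiratory chain, the ribosomes and the proteasome lay mostly on the higher side, while translation factors did not. Of 58 oxidative phosphorylation subunits tested, 48 were higher and 10 lower, with a median of 0.10. Control 3 stood lowest for this list, at -0.27 against -0.01 to 0.18 in the other controls, and without it the median was 0.04. An unadjusted p under 0.05 was found for 8 higher and 3 lower subunits, beside 5.62% of all genes in each direction. *Ndufv2* of complex I read 12.36 to 12.53 in minimal responders and 12.15 to 12.31 in controls, a difference of 0.23 with no overlap, and *Atp5pd* of the ATP synthase differed by 0.45, also with no overlap. *Atp5mc1* differed by 0.40, whereas *Sdhd* of complex II differed by -0.21. Of 60 cytoplasmic ribosomal proteins 45 were higher, with a median of 0.16 (0.10 without control 1), yet *Rpl15* (-0.31), *Rps4x* (-0.28) and *Rps6* (-0.23) were lower. *Rps27* read 13.17 to 13.48 in minimal responders but 11.96 to 13.34 in controls, of which control 3 was the lowest. Of 57 mitochondrial ribosomal proteins 40 were higher (*Mrpl23* 0.61, *Mrps34* 0.28, *Mrps26* 0.30, *Mrpl3* -0.16), and of 40 proteasome subunits 28 were higher (*Psmc3* 0.31, *Psmb3* 0.23, *Psmb1* 0.21, *Psmd2* 0.20). Of 35 translation initiation and elongation factors 14 were higher and 21 lower, with a median of -0.02, and *Eif4h*, an initiation factor, differed by -0.22 with no overlap. None of these passed after adjustment. Without the 2 rats high in choroid plexus transcripts, 34 of the 57 and 22 of the 40 were higher. *Mrpl23* passed without male extreme responder 4 (adjusted p = 0.0482). The mean level of the oxidative phosphorylation list overlapped, at 0.08 to 0.16 in minimal responders and -0.27 to 0.18 in controls, and the ribosomal list did too. In males the medians of the 4 mostly higher lists lay between -0.06 and -0.03. Female extreme responders, against the same controls, had a median of 0.10 for oxidative phosphorylation, as minimal responders had. Their medians were -0.06 for cytoplasmic ribosomal proteins, -0.01 for mitochondrial ribosomal proteins and -0.03 for proteasome subunits.

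**Figure D4:**
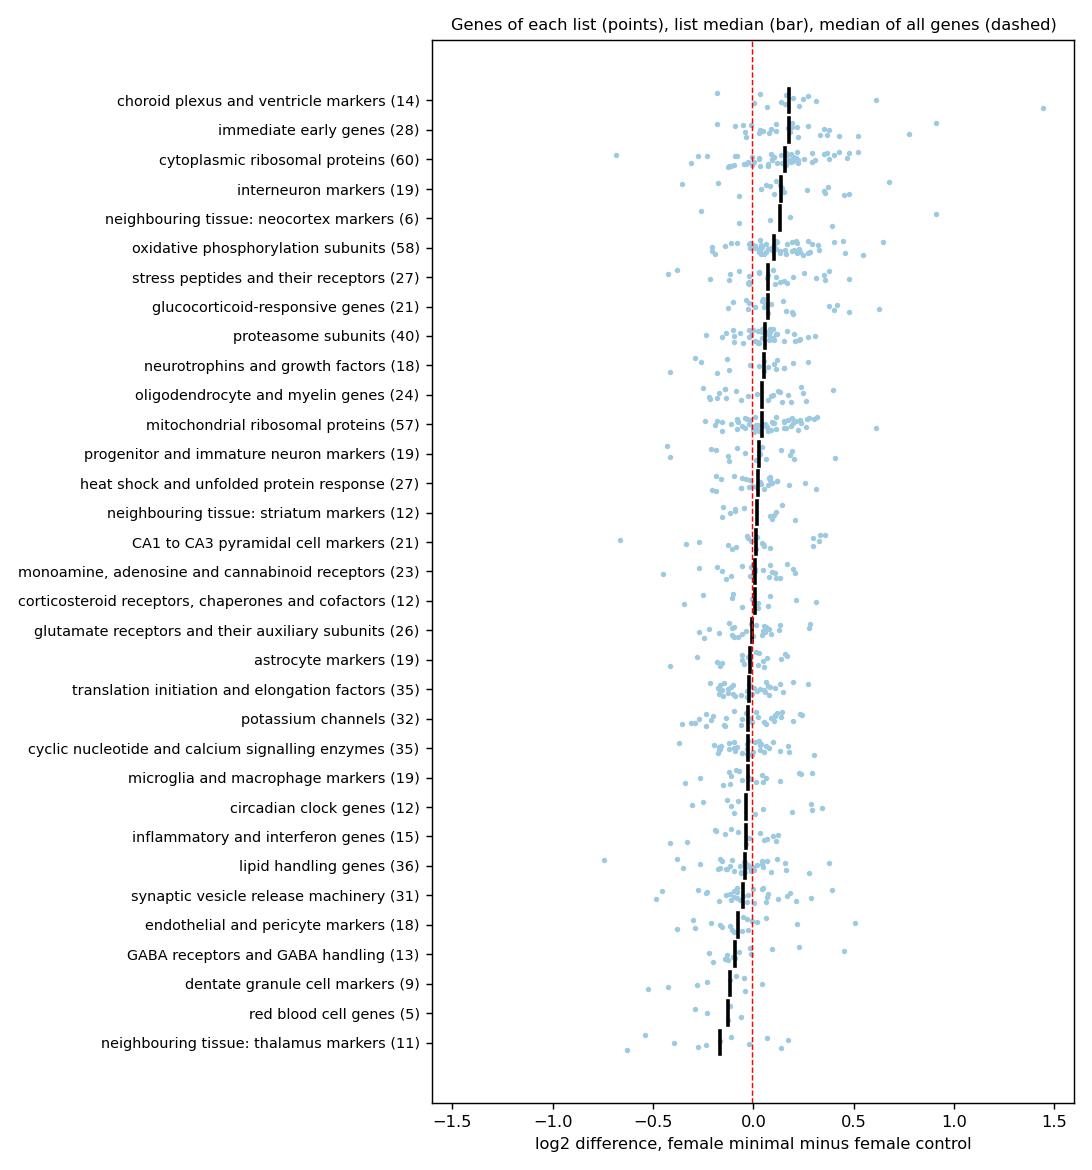
Log2 difference, female minimal responders minus female controls, for the genes (points) of each list, with the list median as a black bar and the median of all genes as a dashed red line. The number of genes tested is in brackets. Immediate early genes have a median of 0.18 and dentate granule cell markers one of -0.12.

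Synaptic and lipid genes moved in both directions. Of 31 genes of the synaptic vesicle machinery 12 were higher and 19 lower, with *Snap25*, part of the fusion complex, at -0.48 and *Napb* at -0.46, but *Vamp2* at 0.29 and *Pacsin1* at 0.39. GABA receptor and handling genes had 3 of 13 higher and 10 lower in the group difference over both array sets, yet 9 of 13 were higher within set B. Of 36 lipid handling genes 23 were lower. *Msmo1*, an enzyme of cholesterol synthesis, differed by -0.38, while *G0s2*, an inhibitor of fat breakdown, and *Acaa1a*, a peroxisomal thiolase, differed by 0.37 and 0.28. *G0s2* was 0.85 lower in extreme than in minimal responders (adjusted p = 0.000352), and *Acaa1a* 0.65 lower (adjusted p = 0.000674). These belong to the 450 probes (3.79%) that passed between extreme and minimal females, and that comparison shares the minimal responders with the one described here.

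Glia and immune genes showed no common direction, while blood vessel markers lay mostly on the lower side. Of 24 oligodendrocyte genes 13 were higher and 11 lower, and *Hapln2*, a link protein at nodes of Ranvier, differed by 0.39. Of 19 astrocyte markers 9 were higher and 10 lower, with *Aqp4*, a water channel, at -0.41. Of 19 microglia markers 8 were higher, with *P2ry12* (-0.34) and *Ctss* (-0.27) lower and *Cd74* (0.24) higher. Endothelial and pericyte markers were lower for 14 of 18, with *Cd93* at -0.38, but *Ece1* and *Klf2* (0.22) were higher. Within set B 11 of 18 were lower, and the mean level of the list overlapped between the groups. Red blood cell genes were lower for 5 of 5, with a median of -0.12. *Oprl1*, the nociceptin receptor, differed by 0.38.

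Tissue next to the hippocampus moved with single rats. Of 14 choroid plexus markers 13 were higher, with a median of 0.18, but their mean level relative to the controls ranged from -0.68 to 2.32 in minimal responders and from -0.66 to 1.98 in controls. *Kl*, *Folr1* and *Kcne2*, which define that tissue, read 9.10, 9.26 and 8.36 in minimal responder 3 and 8.92, 8.26 and 8.52 in control 2. In the other 8 rats *Kl* lay below background. Without these 2 rats the difference was -0.74 for *Fabp7*, 0.42 for *Ppt2*, 0.87 for *Ccn2* and 0.64 for *Arc*, and with the level of the list as a covariate it was -0.74, 0.48, 0.94 and 0.79 in that order. *Ttr* read 8.22, 12.22, 14.50, 9.74 and 13.91 in minimal responders, against 8.60, 15, 7.89, 8.72 and 11.16 in controls. All 14 markers were higher within set A and all 14 lower within set B, where the 2 rats fall on different sides. Thalamus markers were lower for 8 of 11, with a median of -0.17, or -0.04 without these 2 rats. *Pdp1*, from that list, read 8.32 to 8.91 in minimal responders and 9.04 to 9.75 in controls, highest in control 5.

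**Figure D5:**
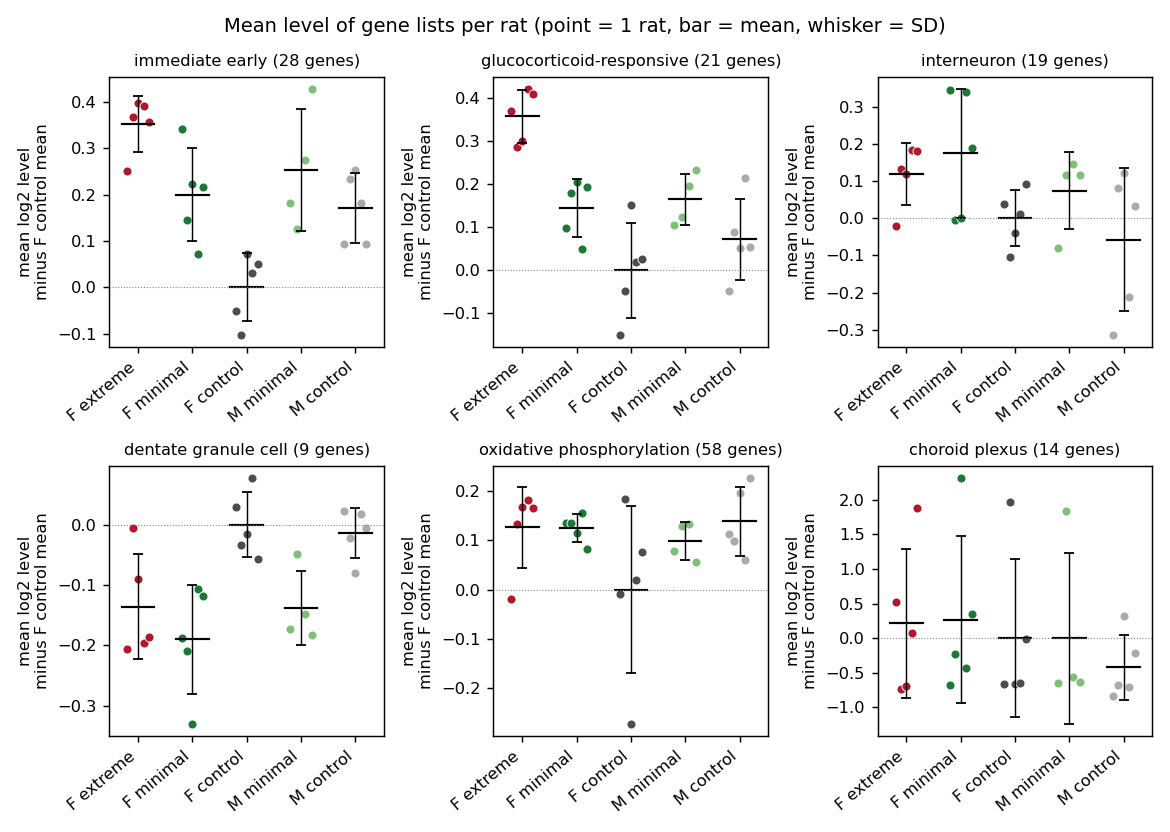
Mean log2 level of 6 gene lists in each rat, minus the mean of the female controls, by group. Points are rats, bars are means and whiskers are SD. The dentate list does not overlap between female minimal responders and controls, the other 5 do, and 1 or 2 rats stand far above the rest in the choroid plexus list.

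The difference between minimal responders and controls did not pass a test of difference between the sexes for any probe. Of 11888 probes 0 passed (0%), with a smallest adjusted p of 0.085, and 1069 had an unadjusted p under 0.05 (8.99%). With the set as a block 8 passed (0.0673%). In males alone 0 probes passed, and 504 had an unadjusted p under 0.05 (4.24%). Of the 24 genes named above by p, 11 had the same sign in males, beside 45.9% of all probes, so the share is near the background. Among probes with 1 gene symbol, the 5 smallest p for the sex difference belonged to *Ssbp4*, *Rab24*, *Dbp*, *Pja2* and *Sigirr*. *Rab24* differed by 0.34 in females and by -0.22 in males (adjusted p = 0.085, or 0.0499 with the block). *Dbp* differed by 0.29 in females and -0.23 in males (adjusted p = 0.085, or 0.0635). *Pja2*, a ubiquitin ligase, differed by -0.37 in females and 0.30 in males, and *Sigirr*, a receptor that restrains interleukin 1 signalling, by -0.22 in females and 0.27 in males, although *Sigirr* lay above background in only 1 female minimal responder.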

How the data were processed

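Hippocampal RNA of single rats was copied into biotinylated cRNA and hybridised to Illumina arrays, per the labels' protocols. The deposited log2 intensity values were used as the authors gave them: their columns share one distribution (median 6.96, range 6.31 to 15), as quantile normalisation gives, and no label names the software. A deposited table of 60 unnormalised signal columns matches no sample label and was not used. Probes above 7.03 (the background mode 6.7 plus 3 SD of 0.109) on at least 5 arrays were kept, 11888 of 22523. Of these, 8545 have 1 gene symbol in the platform annotation, 3343 none and 0 several, giving 8388 genes, and the probe with the highest mean stood for a gene.

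Group means were fitted over 29 arrays with limma 3.58.1 in R 4.3.3 (23 residual and 5.06 prior degrees of freedom), with p-values adjusted by Benjamini-Hochberg over all kept probes and a threshold of 0.05. Since each array is 1 rat, p-values measure the spread between rats. The array sets come from the division shared by 8 of the 16 probes with a gap of at least 0.8 and at least 5 arrays on each side. That limit on the arrays was added after the values were seen. The number of arrays limits the precision. Genes are named as the 12 higher and 12 lower with 1 symbol and the smallest p, those past the test with the set as a block, up to 4 per list, 10 genes of the stress response, and 5 for the sex difference. Others named were chosen after their values were seen. The 34 lists and the comparison were chosen with earlier results of these data known. The sex check list has 0 genes on the array. Promoters are those of RefSeq on GRCr8, scanned in Python 3.11.15, and 63 of 93 named genes matched. Alternatives covered the filter, normalisation, weights, blocks, the arrays in the fit and leaving out each rat.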

Additional observations from a re-analysis of the deposited data

Results flagged for a closer look

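In each female group of 5 rats, a rat was singled out where its gap to the nearest rat exceeded 0.71 of the range of the group (Dixon's critical value). Of 270 pairs of group and gene or list looked at, 13 passed, and chance gives about 1 in 20. The choroid plexus markers make up 7 of them. In minimal responder 3 the ratio was 0.889 for *Kl*, 0.828 for *Folr1* and 0.824 for *Kcne2*, each the highest of its group. In control 2 it was 0.905 for *Kl*, 0.868 for *Folr1*, 0.961 for *Kcne2* and 0.757 for the mean of the choroid plexus list. The other 6 are single values. In minimal responder 4 *Tpr* was highest (9.09, ratio 0.811), and in minimal responder 1 *Bhlhe22* was lowest (12.03, ratio 0.717). In control 5 *Csgalnact1* was lowest (8.33, ratio 0.742), *Nr1d1* highest (8.52, ratio 0.805) and the heat shock list highest (ratio 0.778). In control 3 *Sgk1* was highest (12.30, ratio 0.743).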

How the results depend on the processing

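The count of probes past the test between female minimal responders and controls was 0 and stayed 0 under no filter, a stricter filter, trend and robust fitting, cyclic loess, probe averaging, within set A, and, chosen after seeing the data, without the 2 rats high in choroid plexus transcripts or with that list as a covariate. It was 1 with array weights, 1 in the 10 female arrays, 1 in the 15 female arrays and 1 within set B, and 6 with the set as a block. Leaving out each rat gave 0 to 11: 11 without male extreme responder 4, 6 without control 5, 3 without minimal responder 4 and 1 without male minimal responder 3. Alternatives chosen after seeing the data gave 68 with the set as a block and male extreme responder 4 left out, and 3 with the block in the 10 female arrays. The sex difference counted 8 with the block, 34 with the block and without male extreme responder 4, and 0 to 1 over the rats left out (1 without minimal responder 2). The cause of these changes was not tested. The numbers of the rats follow the order in which the series lists them, and no label pairs rats. Deviations of same-numbered rats correlated at -0.222 to 0.168, and the fit with the replicate block called 0 probes. Neither value can show whether rats were paired or shared a litter. Over 45 alternatives, *Ppt2* passed the test in 7 and *Fabp7* in 6. Signs turned for genes near 0. Leaving out each rat, the difference ranged from -0.148 to 0.0435 for *Nr3c2*, from -0.0317 to 0.0716 for *Nr3c1* and from -0.0618 to 0.0317 for *Crh*. Within set A it was -0.0228 for *Sgk1* and -0.0319 for *Nr3c1*, and within set B -0.017 for *Fkbp5* and 0.13 for *Nr3c2*. Of list medians, 1473 values stayed within the spread and 12 moved, among them the dentate median, which was -0.28 for genes above background on all arrays, and the mitochondrial ribosomal median, which was 0.106 within set A. Within set B that median was 0.000823. The proteasome median was 0.0186 without the 2 rats high in choroid plexus transcripts. Signal near background limits *Nr3c1*, *Crh*, *Stxbp6*, *Cttnbp2* and *Sigirr*, and *Hoxc9* in controls.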
